A study of Mus musculus with 2 samples.

Results

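Molecular chaperones and endoplasmic reticulum (ER) folding enzymes were followed in cultured neutrophils with and without miR-223, a granulocyte microRNA. The members were chosen by gene symbol alone: heat shock proteins (Hsp, Hspa, Hspb, Hspd, Hspe and Hsph symbols), J proteins (Dnaja, Dnajb and Dnajc), subunits of the cytosolic chaperonin (Cct and Tcp1), protein disulfide isomerases (Pdia and P4hb), and the ER chaperones Hsp90b1, Canx and Hyou1. They came to 89 of the 18193 genes measured, and 72 of them counted as expressed, against 11006 genes in all. A gene was read through its brightest probe set, and it counted as expressed when the mean of log2(intensity + 16) over both arrays reached the median of all probe sets, an intensity of 33.9.

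The knockout cells came from male C57BL/6 mice lacking miR-223, and the wild-type cells from male C57BL/6 mice. In both genotypes, blood-forming progenitors from bone marrow had been grown to neutrophils over 6 days with G-CSF and SCF, and cycloheximide, an inhibitor of translation that all the samples received, was added at 100 ug/ml for the last 8 min. The labels do not say how many mice gave the cells. Each genotype had 1 Affymetrix array of total RNA. Without replicates no test was possible, so every difference below compares 2 arrays only, and that number limits how precise any value can be.

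Chaperones bind unfolded proteins and let them fold or refold. Hsp70 proteins do this in cycles of ATP hydrolysis that J proteins start and Hsp110 proteins end, Hsp90 acts on later folding states, and the ring-shaped chaperonin encloses actin, tubulin and other substrates. In the ER, the Hsp70 protein Hspa5 (BiP), the Hsp90 protein Hsp90b1 (GRP94) and the lectin Canx (calnexin) hold new secretory and membrane proteins while disulfide isomerases form their disulfide bonds. Neutrophil precursors make large amounts of granule proteins through this route. Cytosolic chaperones are induced by heat shock factors, and ER chaperones by the unfolded protein response.

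The deleted microRNA guides silencing through its seed, bases 2 to 8, shown in capitals in its mature 3' arm from RefSeq (GRCm38.p6, chrX:96242884-96242905, plus strand) to identify what the knockout cells lack:
mmu-miR-223-3p: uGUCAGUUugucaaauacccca
Hsp90b1 has been reported as a target of this microRNA in human osteosarcoma cells. No search for seed matches was made here.

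The neutrophil identity of the cultures was checked with 16 markers, of which 14 were measured and all 14 were expressed. Of these, 13 were higher in the knockout, at a median of 0.15, and 5 of them by 0.2 or more, while Camp was lower (-0.29). Of all expressed genes, 49.7% were higher, 50.1% lower and 12.1% higher by 0.2 or more. All marker counts in this paragraph stand beside these shares. The summed intensity of the 14 neutrophil markers was 188285 in knockout and 177886 in wild-type cells. S100a9, a calcium-binding protein of neutrophils, had an intensity of 31305 on the knockout array and 29263 on the wild-type array, and S100a8 had 26320.3 and 25757 in the same order. Markers of other blood cells also differed between the arrays. The summed intensity of 14 measured mast cell and basophil markers was 4781 in knockout and 6844 in wild-type cells, and all 12 expressed ones were lower in the knockout. The sum of 10 megakaryocyte and platelet markers was 1473 against 2237 (8 of 9 expressed ones lower), that of 13 monocyte and macrophage markers 8350 against 7134 (8 of 10 higher), that of 12 B and plasma cell markers 1558 against 1129 (4 of 7 higher), that of 6 eosinophil markers 1006 against 1233 (3 of 4 lower) and that of 8 erythroid markers 4700.4 against 5045 (2 of 3 lower), most of it from Tfrc (4464 against 4817), which dividing cells of many types express. Single markers at 1 or more were Apoe (473 in knockout and 156 in wild-type cells, 1.51), Itgb3 (205 and 71.1, 1.34) and Ppbp (215 and 465, -1.06). Of the B and plasma cell markers, Cd79a, Ms4a1, Prdm1, Mzb1 and Tnfrsf17 were below the expression threshold, as were C1qa, C1qc and Mrc1 among the macrophage markers. Others of the same lists were expressed. The brightest B and plasma cell markers were Ighm (1042 in knockout and 662 in wild-type cells, 0.64, lowest probe set -0.14) and Cd79b (172 and 123, 0.43). Those of monocytes and macrophages were Csf1r (3836 in knockout and 3580 in wild-type cells, 0.099, lowest probe set -0.034) and Ccr2 (2309 and 1890, 0.29). In such bulk RNA, fewer cells of a type and less RNA per cell cannot be told apart. The part of these other cells in the differences below was not tested. The poly-A controls added to the RNA were lower on the knockout array by a median of -0.17 on the log2 scale (24 of 24 probe sets lower). The hybridization controls were lower on that array too, at a median of -0.11 (17 of 18 probe sets lower). No value was adjusted to either kind of control.

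By its brightest probe set, none of the 72 expressed members differed between the genotypes by 0.5 or more. All differences are knockout minus wild-type of log2(intensity + 16), a scale that understates the change of dim genes. At a difference of 0.5 or more, a fold of 1.41 for bright genes, 0 of 72 expressed members were higher, where 1.13% of all expressed genes were, and 0 were lower, where 0.591% were. At 1 or more on the same scale the count was again 0 both ways (0.0999% of expressed genes higher, 0.0454% lower), as it was at a fold of 1.5 (0.691% higher, 0.391% lower). At shares this small, a count of 0 among 72 genes is close to the background. The members ranged from -0.37 (Hsph1) to 0.40 (Hspa2), with quartiles of -0.13 and 0.046. The quartiles of all expressed genes were -0.095 and 0.11. The median over the members was -0.060, against -0.00037 over all expressed genes. Of the 72, 45 (62.5%) were lower and 27 (37.5%) higher in the knockout, where 50.1% and 49.7% of all expressed genes were.

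**Figure D1:**
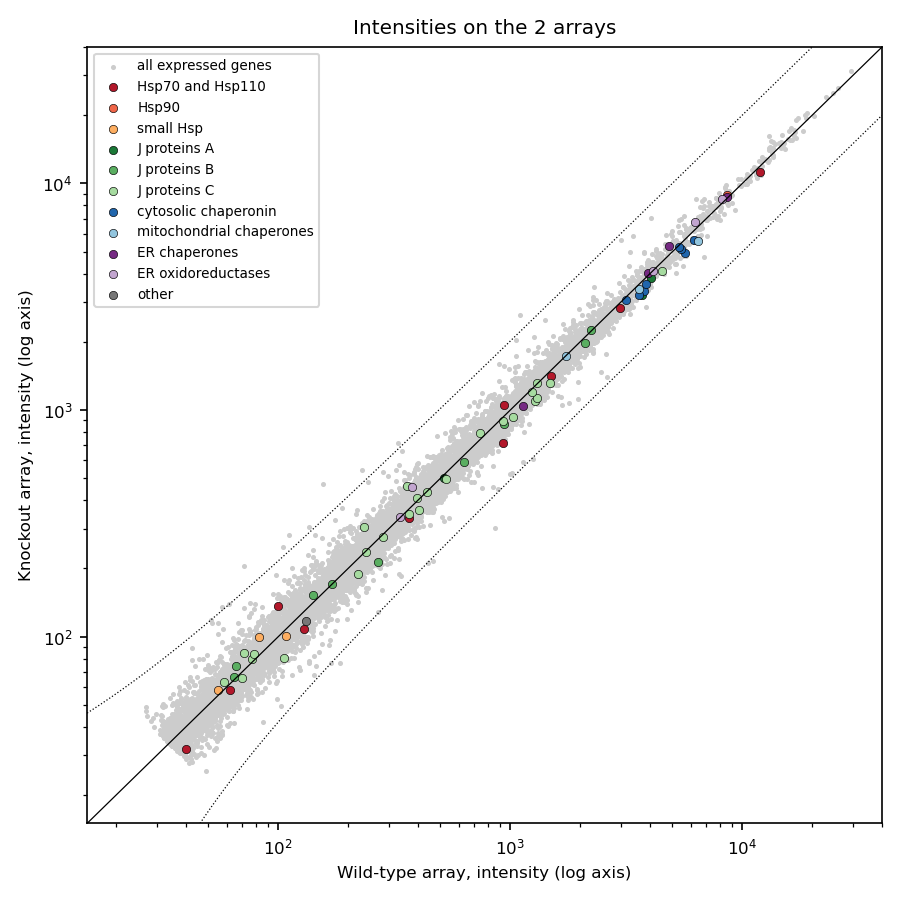
Intensity of each gene on the wild-type array (x axis, log scale) and the knockout array (y axis, log scale), for all expressed genes (grey) and the 72 expressed members (colours by class). The solid line marks equal intensities and the dotted lines a difference of 1 on the log2(intensity + 16) scale. All members lie between the dotted lines.

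These sizes are close to the disagreement between probe sets of the same gene. Where a gene had several expressed probe sets, their pooled SD was 0.144 (5017 genes). It is a spread within these arrays and no replicate error. Of the 72 members, 48 (66.7%) were within 0.144 of 0, as were 65.7% of all expressed genes. A difference of 0.2, chosen after the values were seen because none reached 0.5, was met by 6 higher members (8.33%), where 12.1% of expressed genes were, and by 9 lower members (12.5%), where 8.27% were. Of the 44 members with several expressed probe sets, 26 (59.1%) had none of opposite sign, against 52.5% of all such genes, so the sign of a small difference was often not the same on a second probe set.

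**Figure D2:**
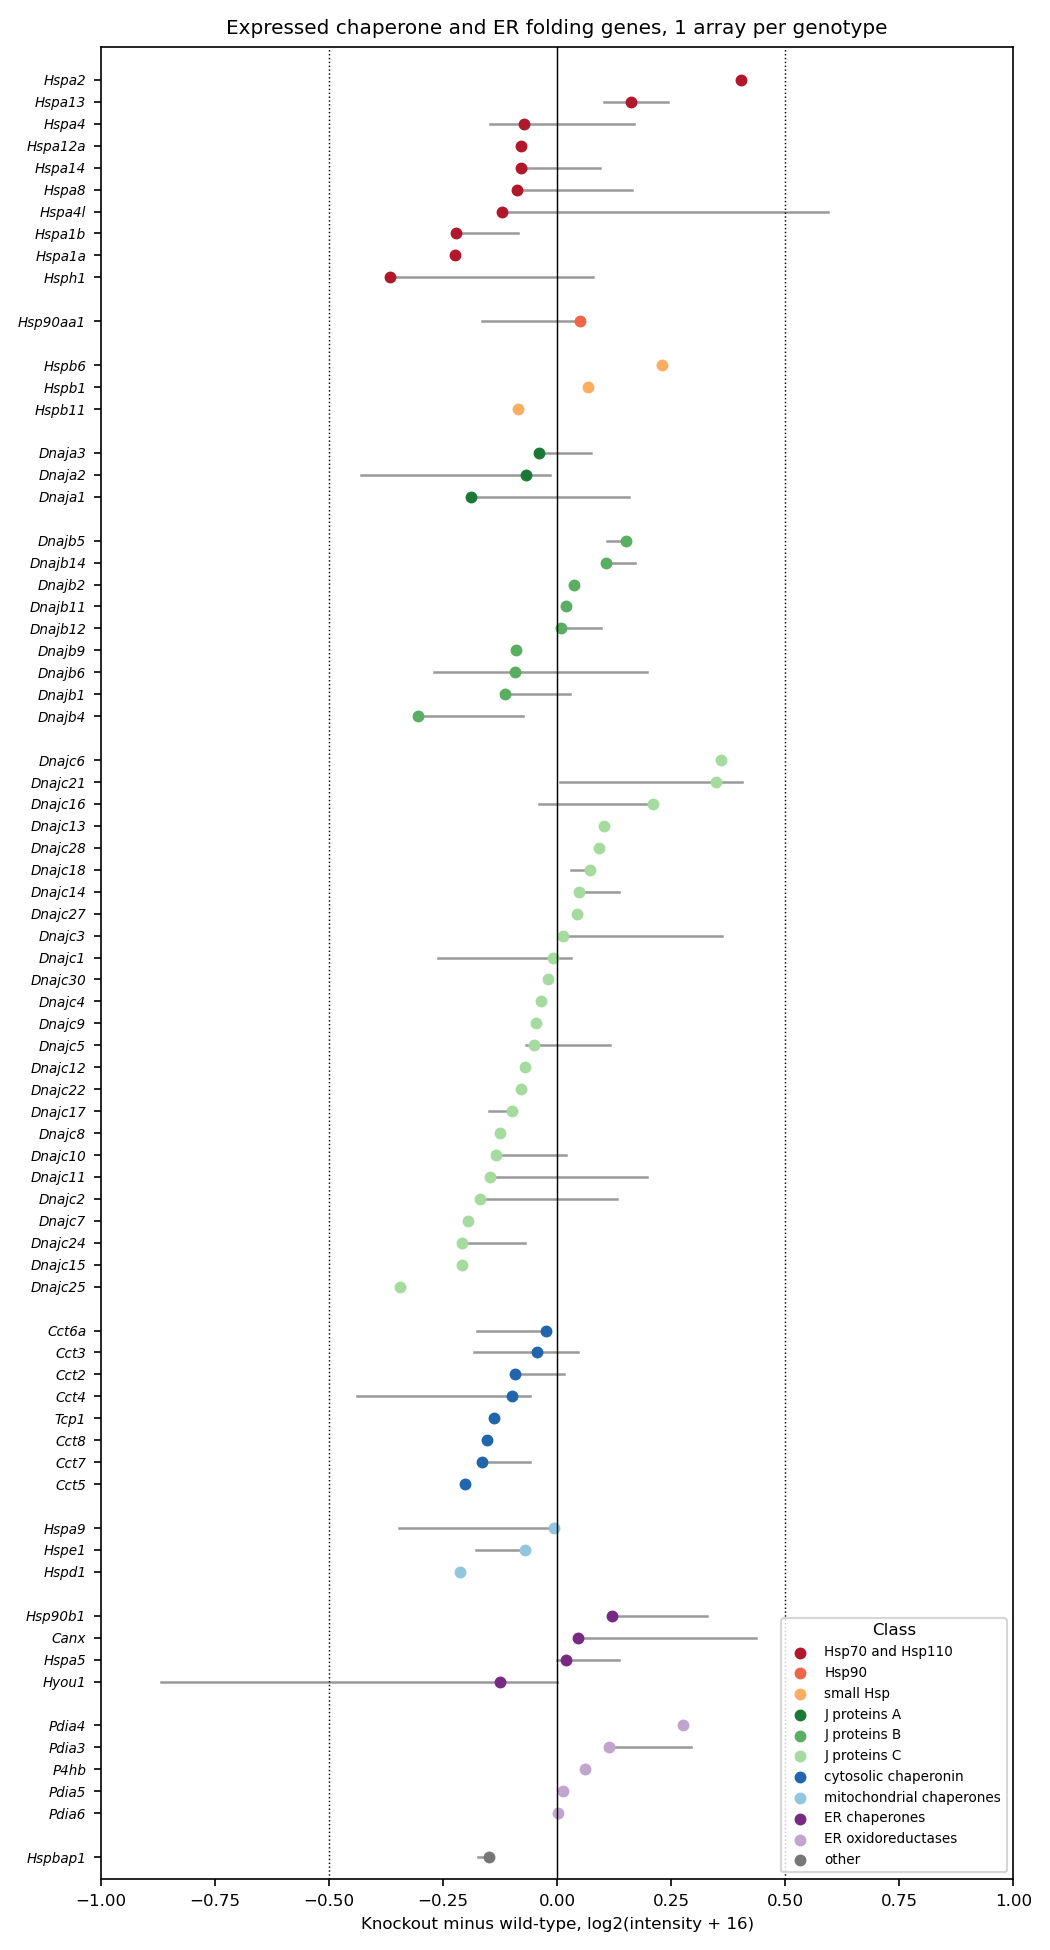
Knockout minus wild-type difference on the log2(intensity + 16) scale (x axis) of the 72 expressed members, by class. Points are the brightest probe set of a gene, grey bars span the lowest and highest of its expressed probe sets (not an error), and dotted lines mark 0.5 in size. No point reaches a dotted line, and the probe sets of Hyou1 and Hspa4l span beyond one.

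The Hsp70 and Hsp110 genes other than Hspa5, Hyou1 and Hspa9 were mostly a little lower in the knockout. Of 12 measured, 10 were expressed, with 8 lower, 2 higher and a median of -0.084, where 50.1% of all expressed genes were lower. Hspa8, the constitutive Hsc70, had an intensity of 11247 in knockout and 11952 in wild-type cells (-0.088), while its 3 other expressed probe sets ran from -0.064 to 0.16. The stress-inducible copies were among the lowest members. Hspa1b gave 108 in knockout and 129 in wild-type cells (-0.22), and Hspa1a gave 32.0 and 40.02 in the same order (-0.22). These genes are near-identical copies, so how their signals divide between them is uncertain, and both were dim. The Hsp110 protein Hsph1, a nucleotide exchange factor of Hsp70, was lowest of all members, at 715 in knockout and 926 in wild-type cells (-0.37). Its other probe set gave 322 and 304, on the opposite side (0.078), and their mean was -0.14.

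The related exchange factors Hspa4 (2825 in knockout and 2973 in wild-type cells, -0.073) and Hspa4l (334 and 365, -0.12) also had probe sets of both signs. For Hspa4l the highest of 5 probe sets stood at 0.59, and the mean turned to 0.15. The higher genes were Hspa2, best known from the testis (137 in knockout and 99.7 in wild-type cells, 0.40), which rested on 1 probe set, and Hspa13, a microsome-associated Hsp70. Hspa13 gave 1049 in knockout and 936 in wild-type cells (0.16), and all 4 of its probe sets were higher, from 0.10 to 0.24. Hspa14, a partner of ribosome-bound J proteins, stood at -0.080 and the divergent Hspa12a at -0.080. When all probe sets of a gene were averaged instead, 5 Hsp70 and Hsp110 genes were lower and 5 higher, with a median of -0.0029. The lower count thus rested on the choice of probe set.

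Hsp90aa1, the inducible cytosolic Hsp90, was the only cytosolic Hsp90 gene among the members. It had an intensity of 8915 in knockout and 8616 in wild-type cells (0.049) and turned to -0.055 with the mean of its probe sets. Its other expressed probe sets gave -0.17 and -0.059. Among the small heat shock proteins, which hold unfolded proteins in solution without ATP, 3 of 8 were expressed, all dim. Hspb6 gave 99.4 in knockout and 82.3 in wild-type cells (0.23), Hspb1 58.2 and 54.8 (0.067), and Hspb11, which also serves in cilia, 101 and 108 (-0.085).

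The J proteins, which deliver substrates to Hsp70, were divided. Of 44 measured, 37 were expressed, with 14 higher and 23 lower, a median of -0.046 and a range from -0.35 to 0.36. Over their 80 expressed probe sets, 40 were lower and 40 higher, where 46.1% of all expressed probe sets were lower and 53.6% higher. Class A holds the main cytosolic partners of Hsc70, Dnaja1 (3226 in knockout and 3681 in wild-type cells, -0.19) and Dnaja2 (3832 and 4021, -0.069), and the mitochondrial Dnaja3 (501 and 515, -0.039). Dnaja1 had another probe set on the opposite side (0.16) and a mean of -0.033, and Dnaja3 turned to 0.065 with the mean of its probe sets. All 4 probe sets of Dnaja2 were lower, from -0.43 to -0.016.

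In class B, the heat-inducible Hsp70 partner Dnajb1 gave 864 in knockout and 937 in wild-type cells (-0.12), and its relative Dnajb4 gave 214 and 269 (-0.31). The other probe set of Dnajb1 was on the opposite side (0.028). The other expressed probe set of Dnajb4 was at -0.075, and the mean of its probe sets was -0.089. Dnajb6, which keeps polyglutamine proteins from aggregating, had 1976 in knockout and 2109 in wild-type cells (-0.093), with probe sets from -0.27 to 0.20. On the higher side were Dnajb5 (74.5 in knockout and 65.5 in wild-type cells, 0.15) and the ER membrane protein Dnajb14 (153 and 141, 0.11). Dnajb5 fell to 0.021 with the mean of its probe sets. The class median, 0.0087, changed sign under 4 of 9 alternatives, reaching -0.093 with an expression filter at the 75th percentile, which left 5 genes.

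Class C members work at many sites. The lowest were Dnajc25 (80.3 in knockout and 106 in wild-type cells, -0.35), the mitochondrial import factor Dnajc15 (1099 and 1274, -0.21), Dnajc24, a factor of diphthamide synthesis (189 and 221, -0.21), Dnajc7, which carries TPR repeats that bind Hsp70 and Hsp90 (1132 and 1299, -0.20), and the ribosome-associated Dnajc2 (1311 and 1476, -0.17). The highest were Dnajc6, the auxilin that helps Hsc70 uncoat clathrin vesicles, at 304 in knockout and 234 in wild-type cells (0.36), and Dnajc21, a factor of ribosome biogenesis, at 464 and 361 (0.35). Several of these values were smaller on other probe sets. Dnajc2 had one on the opposite side (0.13) and a mean of -0.015, and Dnajc24 had -0.070 without probe sets of shared sequence. Dnajc6 had 1 expressed probe set, and 0.16 with the mean of all. None of the 4 expressed probe sets of Dnajc21 was lower, from 0.0071 to 0.41, and their mean with an unexpressed one was 0.20. Dnajc16 (84.5 in knockout and 70.9 in wild-type cells, 0.21, other probe set -0.040) and the endosomal Dnajc13 (794 and 738, 0.10) followed. Dnajc8, a splicing-associated protein, gave 4126 in knockout and 4501 in wild-type cells (-0.13), and both of its probe sets stood at -0.13. The remaining 15 members of class C lay between -0.15 (Dnajc11) and 0.091 (Dnajc28).

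The J proteins of the ER lumen lay on both sides of 0. Dnajb9, a BiP partner, had 590 in knockout and 630 in wild-type cells (-0.091), Dnajb11 had 2257 and 2227 (0.019), and Dnajc1 had 238 and 239 (-0.010). The 5 expressed probe sets of Dnajc1 ran from -0.26 to 0.030. Dnajc3, the BiP partner also called p58IPK, had 1319.7 in knockout and 1309 in wild-type cells (0.012), and its 5 probe sets ran from 0.0090 to 0.36. The ER reductase Dnajc10 had 933 in knockout and 1025 in wild-type cells (-0.13), and turned to 0.020 without probe sets of shared sequence.

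Genes of the cytosolic chaperonin were lower in the knockout by small amounts, which differed between subunits. All 8 expressed subunit genes were lower, where 50.1% of expressed genes were, with a median of -0.12 and a range from -0.20 to -0.024. The subunits assemble into rings that hold each of the 8 kinds. Cct5 gave 4932 in knockout and 5674 in wild-type cells (-0.20), Cct7 3360.3 and 3770.4 (-0.17), Cct8 3228 and 3592 (-0.15) and Tcp1 5601 and 6163 (-0.14). The other 4 were closer to 0, namely Cct4 (3593 in knockout and 3848 in wild-type cells, -0.099), Cct2 (5120.1 and 5455, -0.091), Cct3 (3073 and 3166, -0.043) and Cct6a (5244 and 5332, -0.024). Cct6a moved to -0.18 without probe sets of shared sequence. Of the 22 expressed probe sets of these genes, 20 were lower, where 46.1% of all expressed probe sets were. The 2 higher ones belonged to Cct2 (0.014) and Cct3 (0.046). Each of 9 alternatives left all expressed subunits lower except no expression filter, which brought in the testis subunit Cct6b (0.016). The class median stood between -0.15 and -0.095 across them. It is smaller in size than the difference of the poly-A controls (-0.17). Setting those controls to 0 would shift every gene alike, with the median of all expressed genes at 0.17. Subunits of 1 complex measured on the same 2 arrays are not independent.

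The mitochondrial chaperones were also lower. Hspd1 (Hsp60) gave 5549 in knockout and 6437 in wild-type cells (-0.21), its lid Hspe1 (Hsp10) 3415 and 3586 (-0.070), and the mitochondrial Hsp70 Hspa9 1738 and 1745 (-0.0057). The brightest probe set of Hspa9 was nearest to 0, and its 4 others ran from -0.35 to -0.12, so that the mean of its probe sets was -0.20. All 8 expressed probe sets of the 3 genes were lower, where 46.1% of all expressed probe sets were. With the arrays centred on their medians, the brightest probe set of Hspa9 turned to 0.0057.

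The members whose promoters hold a heat shock element, the site of heat shock factors, are shown for their sequence. The element was searched in RefSeq promoters, 250 bases before to 50 after the start, as GAANNTTCNNGAA on either strand (TTCNNGAANNTTC on the other). Promoters were matched for 74 of the 89 members, and 4 (5.41%) held it, against 0.662% of 27025 genes. These were Hsph1, Hspd1, Dnajb6 and Hspe1, whose differences are given with their classes. Their values were known when the element was searched, and Hsph1 and Dnajb6 had probe sets of both signs, so nothing is read from their direction. The shorter pair GAANNTTC was in 16 of 74 members (21.6%), against 9.04% of genes, and of its 11 expressed holders 8 were lower and 3 higher. Among the 48 expressed members without the pair, 27 were lower and 21 higher, and 50.1% of all expressed genes were lower. Nothing is read from the direction of these counts either. Hspd1 and Hspe1 share 1 stretch between their opposed start points, with 2 overlapping elements, printed on the Hspe1 strand. In Hsph1 the element lies 15 to 27 bases after the start, in the others before it. A match is a description of the sequence and not of binding. The element is in capitals (GRCm38.p6; Hspe1 chr1:55088019-55088116, plus strand; Dnajb6 chr5:29735812-29735897, plus strand; Hsph1 chr5:149636283-149636305, minus strand):
Hspe1: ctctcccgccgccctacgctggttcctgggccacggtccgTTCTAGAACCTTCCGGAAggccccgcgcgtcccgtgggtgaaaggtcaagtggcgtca
Dnajb6: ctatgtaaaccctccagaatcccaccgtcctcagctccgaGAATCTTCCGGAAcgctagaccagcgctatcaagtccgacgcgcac
Hsph1: gcagaTTCTGGAAAGTTCtcctc

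The ER chaperones and oxidoreductases stood at or slightly above 0. Of 10 measured, 9 were expressed, and 8 of these were higher, where 49.7% of expressed genes were, with a median of 0.046. Hspa5 gave 8707 in knockout and 8589 in wild-type cells (0.020), Canx 4034 and 3907 (0.046) and Hsp90b1, which folds Toll-like receptors and integrins, 5270.1 and 4844 (0.12). The second probe set of Hsp90b1 gave 3829 and 3048 (0.33), and that of Canx 1675 and 1234 (0.44). Hyou1, the Hsp110 protein of the ER, was lower, at 1039.5 in knockout and 1135 in wild-type cells (-0.12). Its 3 probe sets disagreed the most of any member. The second gave 179.7 in knockout and 341 in wild-type cells (-0.87), and the remaining one was listed at 45.8 on both arrays. Without probe sets of shared sequence 2 ER chaperones were left, Canx (0.44) and Hyou1 (-0.87), and their median turned to -0.22.

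The 5 expressed disulfide isomerases were all on the higher side by their brightest probe sets. P4hb, the protein disulfide isomerase itself, gave 8506 in knockout and 8151 in wild-type cells (0.061). Pdia3 (ERp57), which works with calnexin, gave 6786 and 6268 (0.11), Pdia4 (ERp72) 459 and 376 (0.28), Pdia5 338 and 335 (0.012) and Pdia6 4117 and 4110.3 (0.0022). Pdia4 stood at 0.14 with the mean of its probe sets, and Pdia3 at 0.20. Pdia5 turned to -0.019 under quantile normalization, and Pdia6 to -0.047 under quantile normalization and below 0 under loess. All 6 expressed probe sets of the 5 genes were higher, where 53.6% of all expressed probe sets were.

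**Figure D3:**
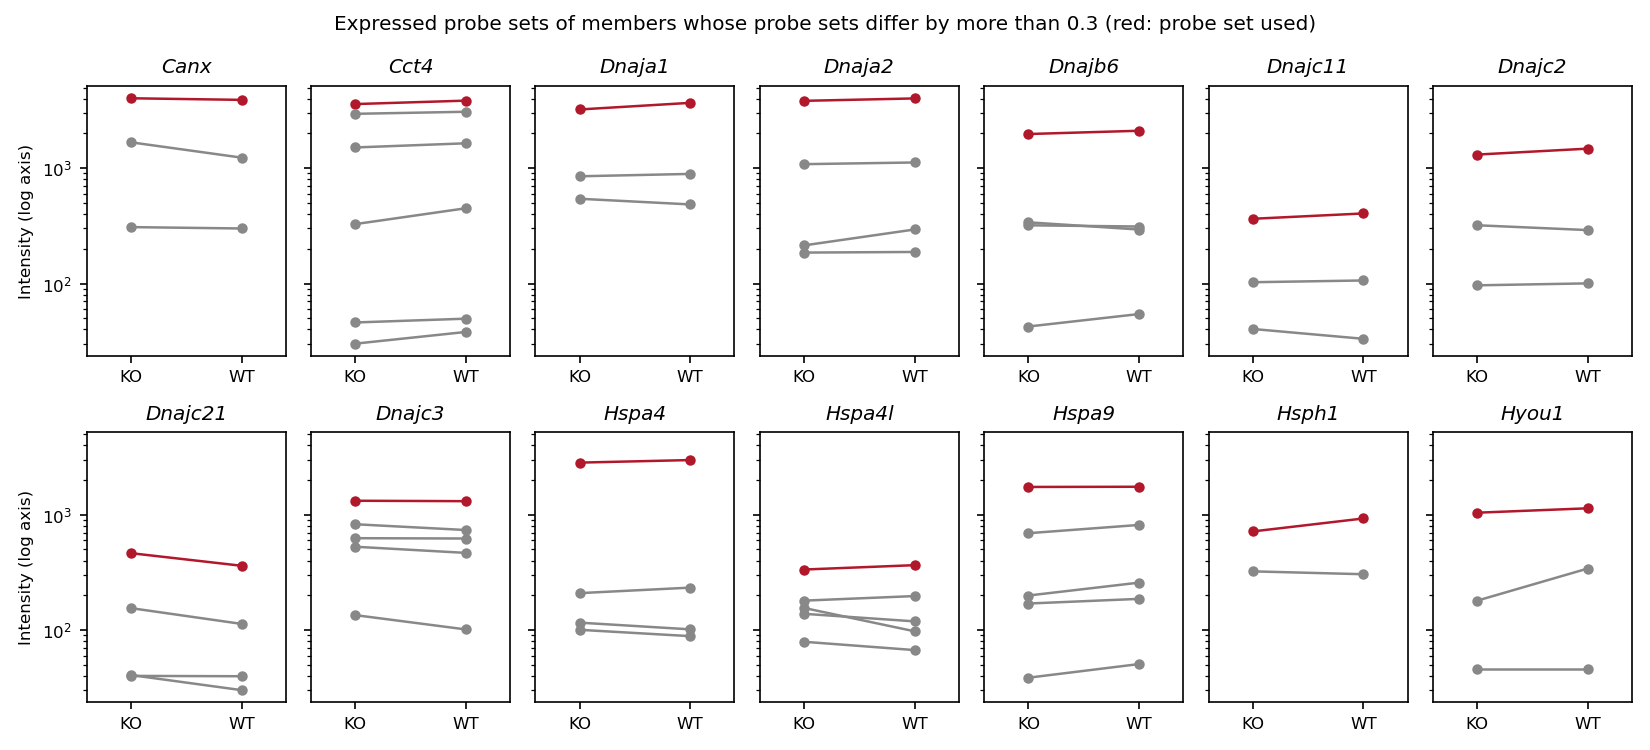
Intensity (y axis, log scale) on the knockout (KO) and wild-type (WT) array of every expressed probe set of the 14 members whose probe sets differ by more than 0.3 on the log2 scale. Lines join the values of 1 probe set, with the one that stands for the gene in red. The second probe set of Hyou1 is steeper than the red one, and that of Canx is lower on the wild-type array while its other lines are nearly flat.

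An ER stress response element, the site through which the unfolded protein response induces ER chaperones, is shown for the sequence of the members that hold it. It was searched in the same windows as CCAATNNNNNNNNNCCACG (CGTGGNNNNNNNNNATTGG on the other strand). It was found in 5 of 74 members (6.76%), against 0.137% of 27025 genes: Hspa5, Hsp90b1, Canx, Pdia6 and Dnajc3. Their differences, given with their classes and known when the element was searched, ranged from 0.0022 to 0.12. Pdia6, Hspa5 and Dnajc3 turned below 0 under quantile normalization or loess. The element is in capitals (GRCm38.p6; Hspa5 chr2:34771985-34772083, plus strand; Hsp90b1 chr10:86705493-86705694, minus strand, with 2 elements; Canx chr11:50325760-50325858, minus strand; Pdia6 chr12:17266451-17266549, plus strand; Dnajc3 chr14:118937787-118937885, plus strand):
Hspa5: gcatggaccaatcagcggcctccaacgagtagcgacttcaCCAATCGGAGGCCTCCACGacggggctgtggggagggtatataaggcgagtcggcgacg
Hsp90b1: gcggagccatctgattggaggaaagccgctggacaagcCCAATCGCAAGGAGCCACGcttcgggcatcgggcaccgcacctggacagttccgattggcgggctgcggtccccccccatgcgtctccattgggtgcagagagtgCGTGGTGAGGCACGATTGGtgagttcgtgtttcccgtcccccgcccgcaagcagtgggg
Canx: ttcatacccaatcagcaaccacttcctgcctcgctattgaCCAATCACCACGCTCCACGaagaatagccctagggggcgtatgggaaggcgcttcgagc
Pdia6: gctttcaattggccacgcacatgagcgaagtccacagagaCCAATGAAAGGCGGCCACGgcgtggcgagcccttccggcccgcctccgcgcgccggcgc
Dnajc3: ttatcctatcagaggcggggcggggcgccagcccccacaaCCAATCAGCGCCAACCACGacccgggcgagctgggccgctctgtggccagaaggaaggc

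The other genes of protein folding were read from 7 lists. Their counts stand beside 49.7% of all expressed genes higher and 50.1% lower. Of 18 unfolded protein response regulators, all expressed, 13 stood above 0 and 5 below, at a median of 0.068 with none at 0.5 or more. Chac1, a target of Atf4, gave 226 in knockout and 175 in wild-type cells (0.34), the sensors Atf6 (321 and 272, 0.22) and Ern1 (415 and 354, 0.22) followed, and the stress factor Atf3 stood at 0.17. One of 3 probe sets of Atf6 was at -0.018. ER-associated degradation genes were divided, 12 higher and 9 lower of 21, with a median of 0.014 that turned to -0.017 under quantile normalization. Derl2 (0.36, other probe set -0.13), Erlec1 (0.32, lowest probe set -0.32), Edem2 (0.22) and Rnf5 (-0.19) differed most.

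Other ER folding factors had 18 higher and 10 lower of 28 expressed, with a median of 0.054. They held the one gene of these lists past 0.5: Txndc12 (ERp18), a thioredoxin-like protein of the ER, at 1394 in knockout and 2604 in wild-type cells (-0.89), on 1 probe set. Creld1 (0.24), Tmx4 (0.21, with probe sets up to 0.57) and Txndc11 (0.19) were next in size. Genes of the translocon, signal peptidase and oligosaccharyltransferase were divided 10 to 11, with a median of -0.011 that turned above 0 under 3 of 9 alternatives. Srprb (0.22), Sec11a (-0.21), Sec11c (0.17) and Ddost (0.16) led them.

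In the cytosol, the list of heat shock factors and co-chaperones had 10 higher and 14 lower of 24 expressed, all between -0.14 and 0.12, with a median of -0.012. Hspbp1 (-0.14), Chordc1 (-0.13), Sgta (0.12) and Stub1 (-0.12) differed most, and Stub1 had another probe set at 0.078. Of the heat shock factors on this list, Hsf1 had no value here, so its expression is not known. Hsf2 (11.2 in knockout and 13.5 in wild-type cells) and Hsf4 (18.1 and 19.2) were below the expression threshold. Prefoldin, which hands substrates to the chaperonin, and tubulin folding factors were divided 7 to 8 with a median of -0.011, which turned to 0.0023 without probe sets of shared sequence. They ranged from Pfdn4 (774 in knockout and 909 in wild-type cells, -0.23) through Pfdn2 (-0.18) and Txndc9 (-0.17) to Pdcl (0.22). Mitochondrial folding genes and proteases had 5 higher and 10 lower of 15, with a median of -0.078. That of the 3 mitochondrial chaperones was -0.070, and it ran from -0.20 to -0.059 under 9 alternatives. The import motor subunit Timm44 gave 705 in knockout and 859 in wild-type cells (-0.28) and the protease subunit Clpp 650.1 and 778 (-0.25), with Clpx (0.16) and Grpel1 (-0.13) next.

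**Figure D4:**
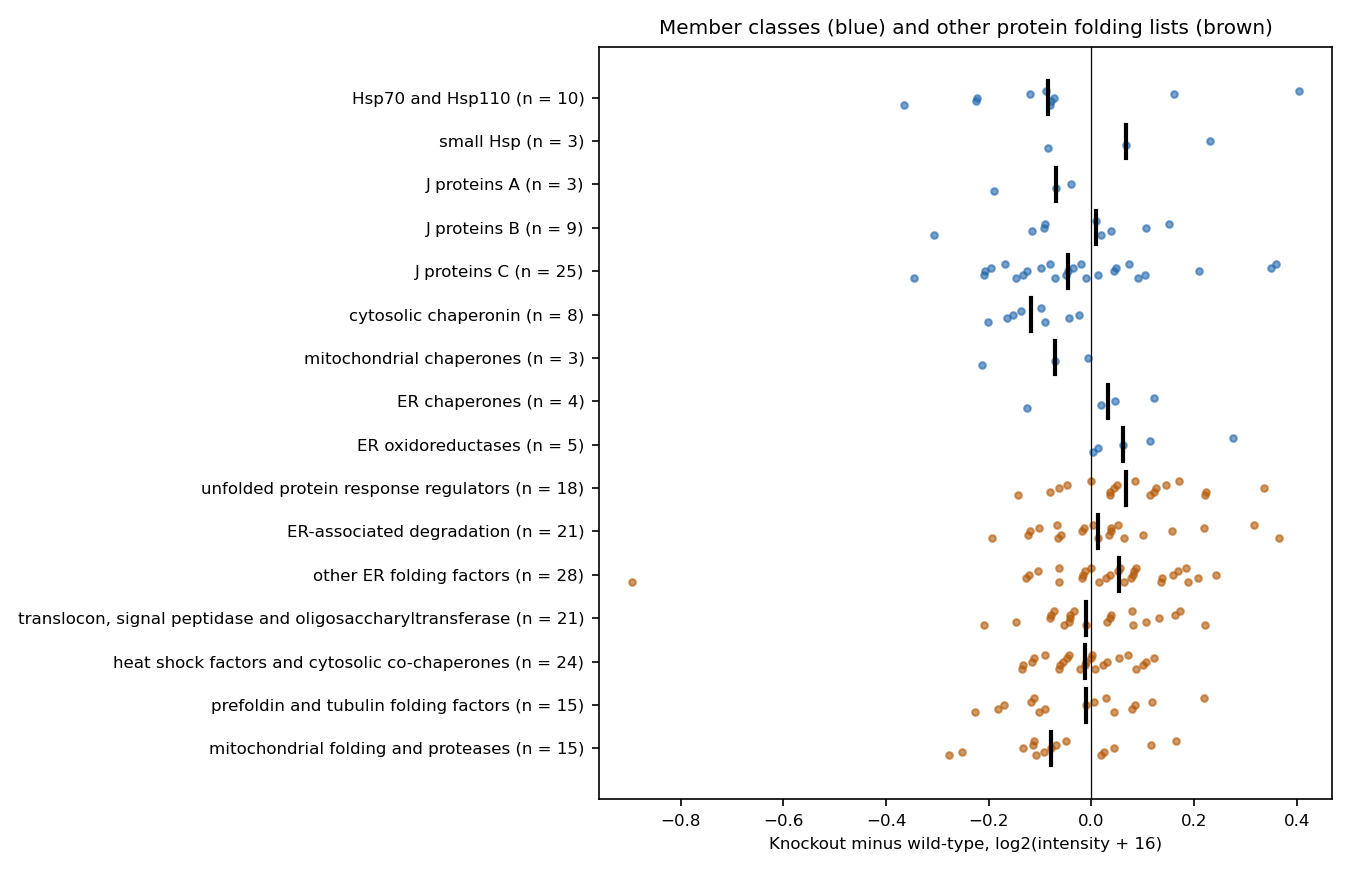
Knockout minus wild-type difference on the log2(intensity + 16) scale (x axis) of each expressed gene, by class of member (blue) and by list of other protein folding genes (brown). Classes with 1 expressed gene are not drawn. Black bars are medians, which lie between -0.12 (cytosolic chaperonin) and 0.068 (unfolded protein response regulators), and the outlying point at -0.89 is Txndc12.

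The 17 members below the expression threshold had intensities from 6.86 to 32.9. They were the J proteins Dnaja4, Dnajb3, Dnajb7, Dnajb8, Dnajb13, Dnajc5b and Dnajc5g, the small heat shock proteins Hspb2, Hspb3, Hspb7, Hspb8 and Hspb9, the Hsp70 genes Hspa1l and Hspa12b, the chaperonin genes Cct6b and Cct8l1, and Pdia2. Their differences lay at background and are not described. Hspbap1, which binds Hspb1 and is no chaperone by name, came in through its symbol and stood at 118 in knockout and 132 in wild-type cells (-0.15), with its other expressed probe set at -0.17.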

How the data were processed

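The 2 arrays were assigned to knockout or wild-type from their labelled genotype. Trizol extraction and labelling with the Affymetrix 3' IVT Express kit, which favours transcript ends, are stated per the labels' protocols. The values deposited by the authors are intensities on a linear scale. No header or label used here states their background correction, summarization or normalization. The columns had 90th percentiles of 704 (knockout) and 696 (wild-type) and were used as deposited.

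Of 45101 probe sets, 64 were array controls. The platform annotation named 34945 for 1 gene, and these alone entered. It paired 3 probe sets with a J protein symbol and another gene, which were left out. Other genes were matched through Entrez identifiers in the RefSeq genes of GRCm38.p6. The brightest probe set by mean log2(intensity + 16) stood for its gene. Apart from the marker sums and the naming of the brightest genes, intensities were not compared between genes. Probe sets differ in affinity, so bright ones weigh most in those sums. Probe sets of shared sequence are those whose suffix ends in s, x or a.

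Members and lists were chosen with earlier results of these data known. Any member could be named. Both intensities are given for the 12 highest and 12 lowest expressed members, the 2 brightest of each class, and all of the Hsp90, ER chaperone and ER oxidoreductase classes. Each pathway list gave up to 4 genes with the largest differences and any at 0.5 or more, and each marker list up to 2 with the highest signal and any at 1 or more. Unexpressed markers, Camp, Tfrc, Hsf2 and Hsf4 were named after their values were seen. Alternatives were pseudocounts of 1 and 64, median centring, quantile normalization, loess (span 0.3), dropping the expression filter or raising it to the 75th percentile, the mean of probe sets, and no probe sets of shared sequence. For the median over members, updated symbols in the rule and the mean over members were tried too. The computation was tested on simulated data whose planted differences were larger than any member difference found here. That test therefore does not cover small differences or their signs. Python 3.11.15, pandas 2.3.3 and statsmodels 0.14.6 were used.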

Additional observations from a re-analysis of the deposited data

How the results depend on the processing

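The median over members stayed below 0 under 9 alternatives in scaling, filter, pseudocount and probe set, and with updated symbols or the mean over members, from -0.073 to -0.024. It was 0.11 with the poly-A controls set to 0, an alternative added after seeing the data that shifts every gene alike and puts the median of all expressed genes at 0.17. Of the 72 member differences, 55 kept their sign under each alternative that gave them a value and 17 did not, and 14 of 620 recomputed values moved by more than 0.144. At 0.5 or more, the alternatives in scaling, filter, pseudocount and probe set gave 0 members in either direction other than 1 lower gene, Hyou1, without probe sets of shared sequence, which also moved the median of the ER chaperones to -0.22 over 2 genes. A threshold of 0.2, also added after seeing the data, counted 6 higher and 9 lower members. At an expression filter at the 75th percentile, which tests fewer genes, 54 members were left, 16 above 0 and 38 below. That put 70.4% of members below 0, against 49.99% of all genes passing this filter. Under the main setting the shares were 62.5% and 50.1%. With the filter at the 75th percentile, 15 members had several probe sets with none of opposite sign. That last count was 13 without probe sets of shared sequence, which leaves fewer probe sets to compare. Other causes were not tested. No paired analysis was possible because each genotype had 1 array. No replicate could be left out for the same reason.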
